A study of Mus musculus with 6 samples.

Results

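The membrane adenylyl cyclases are the enzymes that make cyclic AMP, and mice carry 9 genes for them, Adcy1 to Adcy9. All 9 were found by symbol, each as a single row, among the 52513 genes of the deposited table. The material was spinal cord, segments L4 to L5, from wild-type (WT) mice that had intrathecal injections over 7 days. One group of 3 libraries received saline and the other group of 3 libraries received morphine at 10 µg in 10 µL. No group carried a transgene or a deleted allele, and age, sex and the interval from last injection to dissection are not stated by the labels. The library descriptions list runs of numbers, which may mean that several mice were pooled per library. Because nothing states that the libraries came from separate animals, p-values below measure only the spread between these libraries.

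Adenylyl cyclases are switched on by Gs-type G proteins, and several are switched off by the Gi/o-type proteins that opioid receptors engage. Long opioid exposure is known to be followed by a rebound of cyclase activity when the drug is withdrawn, called superactivation, which cells show through Adcy1, Adcy5, Adcy6 and Adcy8 and not through the isoforms that G-protein beta-gamma dimers stimulate. Adcy1, Adcy3 and Adcy8 are grouped as stimulated by calcium and calmodulin, Adcy2, Adcy4 and Adcy7 as stimulated by beta-gamma dimers, Adcy5 and Adcy6 as inhibited by calcium, and Adcy9 stands alone as nearly insensitive to the plant activator forskolin. The comparison of morphine with saline asks whether the mRNA of any isoform, or the mixture of isoforms, differed after the treatment. Enzyme activity was not measured here.

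Adcy9 was the 1 isoform called lower after morphine by limma's adjusted p. It went from 4.46 ± 0.514 FPKM to 1.89 ± 0.134 (SD, n = 3 each), a 2.36-fold lower level. The call was lost in 8 of 17 other settings. FPKM are fragment counts divided by transcript length and by the library's mapped fragments, so the levels of different isoforms can be compared. The other tested isoforms did not pass the test, although the groups of Adcy3 and of Adcy5 did not overlap either, with morphine the lower. Adcy4 was too low to be tested. The calcium-inhibited Adcy5 was the most abundant isoform in both groups and Adcy1 came next, although their ranges overlapped and Adcy1 was the higher in saline 3. In share of the summed isoform FPKM, Adcy9 made up 5.50% ± 0.568 of the saline total and 2.73% ± 0.156 of the morphine total (SD, n = 3 each).

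Depth, worked out from the spacing of low values, came to 21.1 to 25.8 M fragments per saline library and 17.6 to 19.5 M per morphine library. Snap25, a synaptic protein of neurons, lay at 1498 to 1797 FPKM, and the astrocyte filament Gfap, the myelin protein Mbp and the microglial receptor Cx3cr1 were present in all 6 libraries. The summed FPKM of 8 markers of motor and cholinergic neurons was 230, 247 and 48.3 FPKM for saline 1, 2 and 3 against 95.3, 239 and 36.7 for morphine 1, 2 and 3. Saline 3, morphine 1 and morphine 3 thus held less motor neuron RNA than the other libraries. Morphine 3 also had the lowest sum of 6 markers of Schwann cells and sensory ganglion, 0.79 FPKM against 35.5 to 150 in the others. In bulk tissue, fewer cells of a type and less RNA per cell cannot be told apart.

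**Figure D1:**
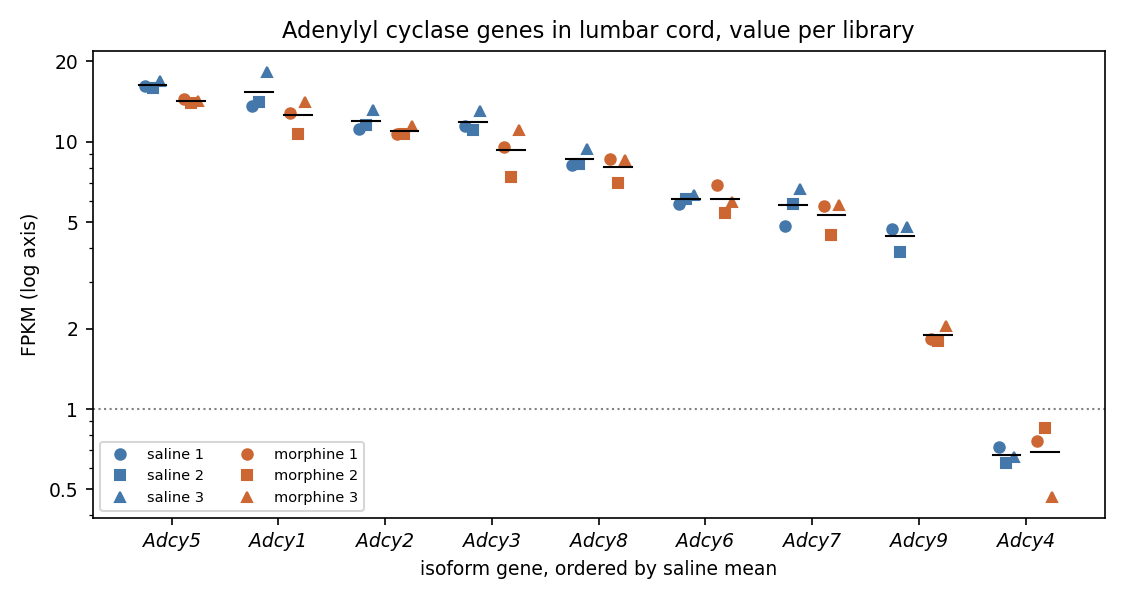
FPKM (log axis) of the 9 isoform genes in each library, saline in blue and morphine in orange, with black bars at the group means and a dotted line at the filter level of 1 FPKM. Adcy9 sits between 3.87 and 4.81 FPKM in saline and between 1.79 and 2.04 in morphine, while Adcy4 is below the line in every library.

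Adcy9, whose enzyme is broadly expressed and responds weakly to forskolin, occupies bases 4287529 to 4420498 of chromosome 16, minus strand (GENCODE M21, mm10). It has 3 annotated transcripts of 4457 to 4974 nt with up to 12 exons. Its values were 4.70, 3.87 and 4.81 FPKM for saline 1, 2 and 3 against 1.83, 1.79 and 2.04 for morphine 1, 2 and 3. The lowest saline value was well above the highest morphine value. Over the longest transcript that is some 476, 475 and 484 fragments for the saline libraries against 170, 150 and 178 for the morphine ones. The 95% Poisson intervals, which cover counting error only, ran from 433 to 529 fragments over the saline libraries and from 127 to 206 over the morphine libraries.

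On the scale of log2(FPKM + 1), limma put Adcy9 at a fold change of -0.92 (95% interval -1.16 to -0.67, SE 0.10) and an adjusted p of 0.0365. Of 14614 tested genes, 58 had a log2 fold change as low or lower. Of the 8 tested isoforms 1 was called, where 1.51% of all tested genes were called in either direction, 0.561% as lower and 0.944% as higher. Permuting the 6 FPKM values of Adcy9 exactly (two-sided) gave p = 0.1, which is the lower bound for 3 against 3. The call was lost without saline 1 (adjusted p = 0.146), saline 2 (0.0848), saline 3 (0.0925), morphine 1 (0.152) or morphine 3 (0.120), and kept without morphine 2 (0.0303), while the fold change itself stayed between -0.996 and -0.87. It was -0.95 with the motor neuron marker level as a covariate (adjusted p = 0.0269).

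The annotated bases just before the start of Adcy9 are shown with those of Adcy5 and Adcy1, the most abundant isoforms, because cyclic AMP acts on transcription through the cyclic AMP response element. The core of that element, TGACG on either strand, is in capitals. Each line gives the 100 bases before the RefSeq start (GRCm38.p6), on the gene's own strand.
Adcy9 (chr16:4420499-4420598, minus): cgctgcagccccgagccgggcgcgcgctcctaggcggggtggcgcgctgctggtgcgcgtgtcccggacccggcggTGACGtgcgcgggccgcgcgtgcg
Adcy5 (chr16:35154764-35154863, plus): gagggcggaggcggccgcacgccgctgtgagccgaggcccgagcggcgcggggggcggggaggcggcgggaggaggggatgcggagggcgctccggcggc
Adcy1 (chr11:7063333-7063432, plus): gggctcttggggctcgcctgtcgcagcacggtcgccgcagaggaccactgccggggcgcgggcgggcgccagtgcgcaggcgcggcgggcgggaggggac

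Adcy9 holds 1 such core in this stretch, beginning 24 bases before the start, while Adcy5 and Adcy1 hold 0. The stretches have 21, 17 and 15 CpG dinucleotides, respectively. RefSeq promoters of 300 bases (250 before and 50 after a start) were at hand for 7 of the 9 isoforms, 10 starts in all. The core was in 2 of these 10, the Adcy9 start and 1 of the 3 Adcy7 starts, and in 20.8% of all 32817 promoters of that length. The full element TGACGTCA, which contains the core, was in 0 of the 10 and in 1.79% of all promoters. These matches describe letters only, and binding was not measured. The promoters at the starts of Adcy9, Adcy5, Adcy1 and Adcy2 held 42, 44, 37 and 32 CpG dinucleotides in 300 bases, the 2 Adcy3 starts 33 and 7, the Adcy4 start 16 and the 3 Adcy7 starts 4 to 6, and the median over all promoters was 7.

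**Figure D2:**
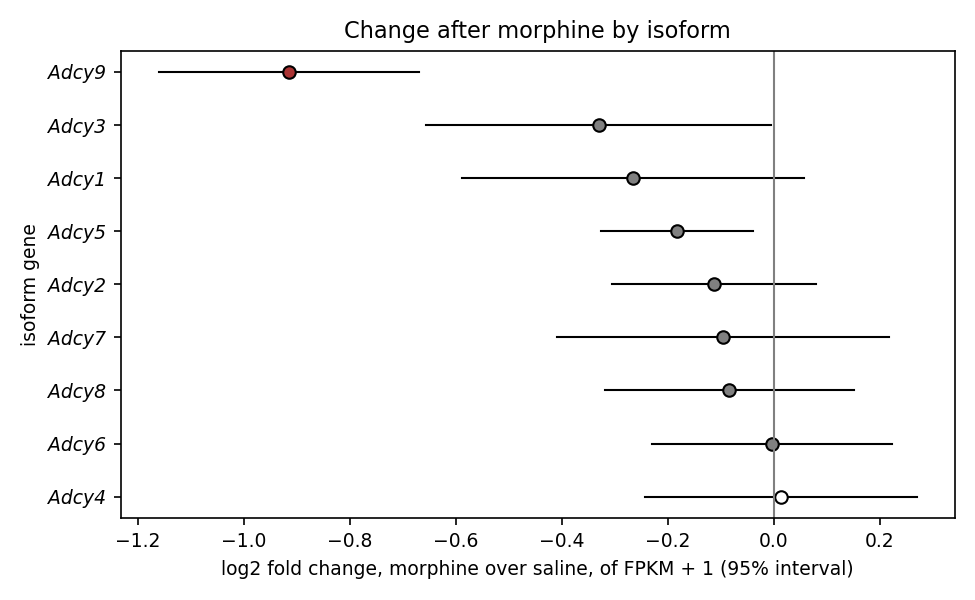
Log2 fold change of FPKM + 1, morphine over saline, with its 95% interval for each isoform. The filled red point is the isoform past the adjusted p threshold, grey points are tested isoforms that did not pass, and the open point is Adcy4, read from the model fitted with no filter. Adcy9, at -0.92, has an interval that overlaps that of no other isoform.

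Among the calcium-inhibited isoforms, Adcy5, the striatal isoform also abundant in this cord, lies on chromosome 16 from 35154877 to 35305738. It measured 16.2, 15.9 and 16.9 FPKM after saline against 14.52, 14.03 and 14.24 after morphine. Its groups did not overlap and the spread within each was small, yet the difference did not pass (log2 fold change -0.18, SE 0.06, limma adjusted p = 0.144). Rescaled to TPM (values that sum to 1e6 per library), a scaling that moved the all-gene median from -0.02 to -0.13 in log2, Adcy5 was at -0.31 with an adjusted p of 0.0422, and 6.53% of all tested genes were called. Adcy6, its closest relative, lies on chromosome 15 from 98589973 to 98610076. It measured 5.83, 6.09 and 6.34 FPKM after saline against 6.88, 5.43 and 5.96 after morphine. The Adcy6 morphine values surrounded the saline ones (log2 fold change -0.0038, 95% interval -0.23 to 0.22). Adcy6 shares exonic bases with Gm29331, an antisense gene, and whether reads were assigned by strand is not stated by the labels.

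Among the calmodulin-stimulated isoforms, Adcy1, the neuronal cyclase tied to synaptic plasticity and to pain in the cord and cortex, lies on chromosome 11 from 7063489 to 7178506 and measured 13.6, 14.2 and 18.3 FPKM after saline against 12.9, 10.7 and 14.1 after morphine. Adcy3, the cyclase of olfactory neurons and of neuronal primary cilia, lies on chromosome 12 from 4133103 to 4213525 and measured 11.5, 11.1 and 13.1 FPKM after saline against 9.55, 7.42 and 11.1 after morphine. For both genes saline 3 was the highest library and morphine 2 the lowest.

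The highest Adcy3 value in morphine (11.08 FPKM) came within 0.04 FPKM of its lowest saline value (11.12). Adcy1 had a log2 fold change of -0.27 (SE 0.14, limma adjusted p = 0.304) and Adcy3 of -0.33 (SE 0.14, adjusted p = 0.218). With the motor neuron marker level as a covariate both passed, Adcy1 at -0.37 (adjusted p = 0.0360) and Adcy3 at -0.43 (adjusted p = 0.0394), in a fit that called 6.17% of all tested genes. In the plain comparison Adcy1 was at -0.14 without saline 3 and -0.16 without morphine 2, and Adcy3 at -0.19 without morphine 2. Saline 3, where both were highest, had few of those markers and morphine 2, where both were lowest, had many. The part of the markers in the plain comparison was not tested beyond that fit. Adcy3 shares exonic bases with Cenpo, a centromere protein gene on the opposite strand. Adcy8, the second neuronal calmodulin-stimulated cyclase, lies on chromosome 15 from 64697084 to 64922296 and measured 8.18, 8.27 and 9.38 FPKM after saline against 8.62, 7.04 and 8.58 after morphine. The Adcy8 groups overlapped (log2 fold change -0.08, 95% interval -0.32 to 0.15).

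Of the isoforms stimulated by beta-gamma dimers, neither of the tested ones passed limma's test. Adcy2, on chromosome 13 from 68620043 to 68999541, measured 11.2, 11.5 and 13.2 FPKM after saline against 10.7, 10.7 and 11.5 after morphine (log2 fold change -0.11, 95% interval -0.31 to 0.08). Its exons share bases with the antisense gene Gm35161. Adcy7, a cyclase known from immune cells and microglia, lies on chromosome 8 from 88272403 to 88329962. It measured 4.84, 5.85 and 6.65 FPKM after saline against 5.73, 4.48 and 5.79 after morphine, so that the groups overlapped (log2 fold change -0.10, 95% interval -0.41 to 0.22).

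Adcy4, on chromosome 14 from 55769057 to 55784095, was the rarest isoform. It measured 0.72, 0.63 and 0.66 FPKM after saline against 0.76, 0.85 and 0.47 after morphine, about 35 to 66 fragments per library. Read from the model with no filter, its log2 fold change was 0.01 (95% interval -0.24 to 0.27), and morphine 3 stood below the other libraries.

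Across the family, 3 of the 8 tested isoforms (Adcy3, Adcy5 and Adcy9) had groups that did not overlap, and in all 3 morphine was the lower. The same 3 isoforms had an unadjusted p under 0.05, against 22.3% of all tested genes. The share without overlap was not far from the 28.7% of all tested genes whose groups did not overlap, of which the part with morphine lower was 15.7%. The log2 fold change was below 0 for all 8 tested isoforms, with a median of -0.15, where 53.1% of all tested genes were below 0 and their median was -0.02. Adcy6, the isoform nearest to 0, turned positive under quantile normalization, median-of-ratios scaling and removal of the length trend. Isoform exons span 4211 to 12522 nt in total, and among the 6515 tested genes in that range 65.4% were below 0 with a median of -0.06. With the trend of fold change on length removed, Adcy9 was at -0.88 (limma adjusted p = 0.0365).

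The order of the isoforms in saline ran from Adcy5 (16.3 FPKM) and Adcy1 (15.4) through Adcy2 (12.0), Adcy3 (11.9), Adcy8 (8.61), Adcy6 (6.09), Adcy7 (5.78) and Adcy9 (4.46) to Adcy4 (0.670). In saline the ranges of Adcy5 and Adcy1, of Adcy2 and Adcy3, and of Adcy6 and Adcy7 overlapped, so these neighbours did not differ beyond their spread, and the other neighbours were separate in all 3 libraries. The order of the means in morphine was the same. There Adcy5 was above Adcy1, and Adcy6 above Adcy7, in each of the 3 libraries, although the ranges overlapped. The morphine ranges of Adcy1 and Adcy2, of Adcy2 and Adcy3, and of Adcy3 and Adcy8 overlapped too. In each of these pairs the first was also the higher in all 3 libraries. By the mean over the 6 libraries, 59.9% of tested genes were below Adcy5, 49.8% below Adcy3 and 32.6% below Adcy7.

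The share of each isoform in the family total shows the mixture apart from its size. The 9 isoforms summed to 76.8, 77.4 and 89.3 FPKM after saline against 71.5, 62.5 and 73.8 after morphine. All morphine sums were lower, and the mean went from 81.1 ± 7.05 to 69.2 ± 5.98 FPKM (SD, n = 3 each). This difference of -11.9 FPKM was -7.85 FPKM without saline 3. Rescaled to TPM, the mean sums were 122 TPM in saline and 95.1 TPM in morphine. That difference of -26.8 TPM is in another unit, so its size cannot be set directly against the one in FPKM. Without Adcy9 the sums were still lower in each morphine library, at 76.7 ± 6.78 and 67.3 ± 5.88 FPKM.

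Adcy9 contributed 6.12%, 5.00% and 5.39% of the saline sums against 2.56%, 2.87% and 2.77% of the morphine sums, with no overlap (exact two-sided permutation p = 0.1, the smallest possible). Adcy5 held 20.2% ± 1.12 in saline and 20.7% ± 1.61 in morphine, Adcy1 18.8% ± 1.43 and 18.1% ± 1.0065, and Adcy3 14.7% ± 0.302 and 13.4% ± 1.57 (SD, n = 3 each). None of these 3 shares separated the groups. Adcy8 went from 10.6% ± 0.0966 to 11.7% ± 0.395, Adcy6 from 7.52% ± 0.390 to 8.80% ± 0.778 and Adcy2 from 14.7% ± 0.173 to 15.9% ± 1.11 (SD, n = 3 each). These 3 shares were higher in every morphine library than in any saline library (exact two-sided permutation p = 0.1 for each). The Adcy2 groups lay close, with 14.9% in saline 2 and 15.0% in morphine 1, and the difference of 1.15 percentage points was 0.532 without morphine 2 and 0.658 by estimated fragments. Adcy7 held 7.10% and 7.68% and Adcy4 0.830% and 1.02%, with overlap. As shares sum to the whole, a lower Adcy9 share raises the others. Shares over the sum without Adcy9 were not taken, so these separations are not shown to be apart from the Adcy9 difference.

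By regulatory group, the calmodulin-stimulated isoforms made up 44.1% ± 1.30 of the family in saline and 43.2% ± 2.76 in morphine. The calcium-inhibited isoforms made up 27.7% ± 1.45 and 29.5% ± 1.93, and the groups overlapped for both. The calcium-inhibited difference of 1.79 percentage points was 0.961 without saline 3, 0.960 without morphine 2 and 2.85 without morphine 3. Those stimulated by beta-gamma dimers made up 22.7% ± 0.777 and 24.6% ± 0.928 (SD, n = 3 each). Every morphine library was above every saline library, by 0.759 percentage points between the nearest (exact two-sided permutation p = 0.1, the smallest possible). The sum includes Adcy9 here as well, so this separation is not shown to be apart from the Adcy9 difference.

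**Figure D3:**
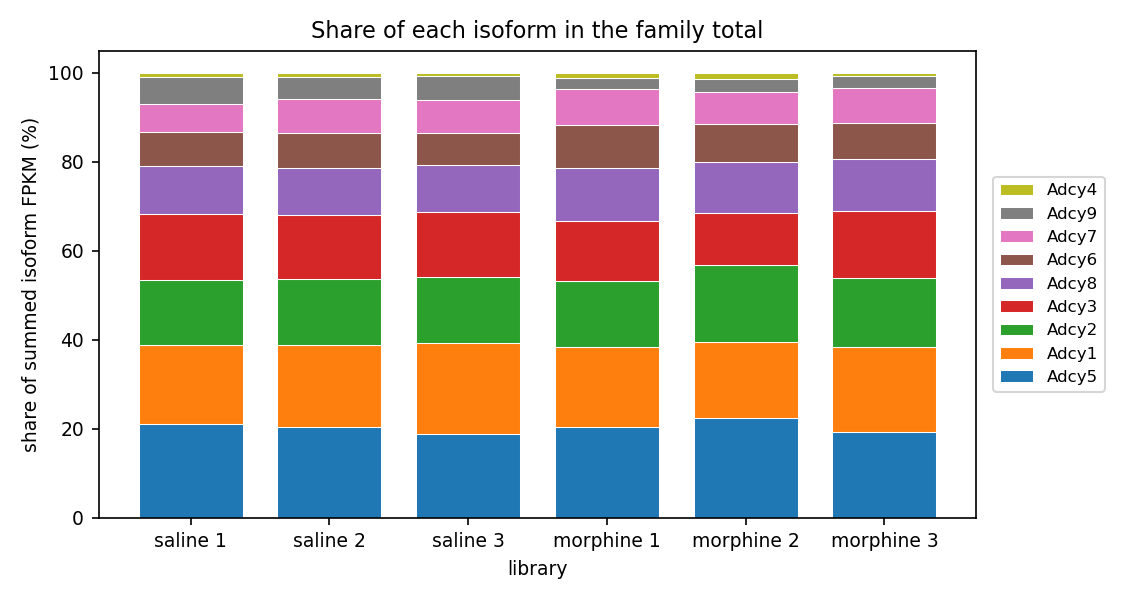
Share (%) of each isoform in the summed FPKM of the 9 isoforms, one bar per library. The grey Adcy9 band is 5.00% to 6.12% of the bar in saline and 2.56% to 2.87% in morphine, and the Adcy2, Adcy6 and Adcy8 bands are each wider in every morphine bar than in any saline bar.

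Among the genes whose levels followed Adcy9 most closely over the 6 libraries, out of 12785 named genes, were Atl1 and Stim1 (Pearson's r of 0.997 for both). Atl1, a GTPase that shapes the endoplasmic reticulum, measured 53.1, 50.01 and 53.7 FPKM after saline against 39.7, 38.4 and 39.7 after morphine. Stim1, the calcium sensor of that organelle, measured 16.5, 16.1 and 16.7 FPKM after saline against 14.03, 13.85 and 14.04 after morphine. For Adcy5 the closest genes were Dopey2, Pde4d and Dgkq (r of 0.998, 0.998 and 0.994). These r values are a description over 6 libraries in 2 groups, and the group difference is part of each.

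The rest of the cyclic AMP pathway was read from 10 lists with 91 genes, of which 83 were tested. In these, 2 genes fell and 0 rose by limma's adjusted p, with 20 lower and 2 higher at an unadjusted p under 0.05. Taken in either direction, both counts are near the shares of all tested genes, 1.51% by adjusted and 22.3% by unadjusted p. They are therefore not a result about the pathway. The unadjusted share of all tested genes was not split by direction. Of the 83 genes 60 had a log2 fold change below 0, where 53.1% of all tested genes did, and their median was -0.09 against -0.02. The 2 called lower were the phosphodiesterase gene Pde4d and the activity-induced transcription factor gene Fos. With the length trend removed, 55 of the 83 pathway genes were below 0. Their median was then -0.06, against -0.006 for all tested genes in that setting.

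Pde4d encodes an enzyme that degrades cyclic AMP and measured 4.59, 4.33 and 5.44 FPKM after saline against 2.65, 2.27 and 2.38 after morphine. Its groups were far apart, and its log2 fold change was -0.75 (SE 0.10, limma adjusted p = 0.0453). Of the 14 tested phosphodiesterases 13 were below 0, with a median of -0.14, and 1 passed. Of all tested genes 53.1% were below 0, with a median of -0.02. With the length trend removed, 13 of the 14 phosphodiesterases were below 0, with a median of -0.08. Pde1b, the most abundant, was at 55.5 ± 4.53 and 52.1 ± 5.01 FPKM (SD, n = 3 each). Pde4d lost its call when the length trend was removed, with no filter, under the replicate block and without each library other than morphine 2.

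Fos, a target of the transcription factor CREB that cyclic AMP activates, measured 23.8, 21.2 and 23.0 FPKM after saline against 10.2, 12.5 and 8.97 after morphine. Its log2 fold change was -1.04 (SE 0.12, limma adjusted p = 0.0361), and it too lost its call with no filter, under the replicate block and without each library other than morphine 2. Of the 17 tested CREB target genes 11 were below 0 (53.1% of all tested genes), with a median of -0.17. Fos was the 1 that passed. At an unadjusted limma p under 0.05 there were 7, all of them lower, where 22.3% of all tested genes were under that p. Sst, the precursor of somatostatin and the most abundant of the list, was at 406 ± 69.7 and 437 ± 120 FPKM (SD, n = 3 each).

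Upstream of the cyclases, 0 of the 2 Gs-type and 0 of the 5 Gi/o-type alpha subunits passed limma's test. At an unadjusted p under 0.05 there were 0, where 22.3% of all tested genes were under that p. Gnas, the main Gs alpha gene, was at 1637 ± 103 and 1843 ± 164 FPKM, and Gnal, its olfactory and striatal relative, at 34.8 ± 4.08 and 31.7 ± 3.04 FPKM (SD, n = 3 each). All 5 Gi/o genes were below 0 (53.1% of all tested genes), with a median of -0.07. With the length trend removed, 4 of them were below 0. Gnai2, the most abundant, was at 150 ± 5.62 and 147 ± 3.59 FPKM, and Gnai3 at 16.2 ± 0.723 and 15.0 ± 1.11 FPKM. Gnaz was at 19.7 ± 1.68 and 18.1 ± 1.56 FPKM.

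Of the 4 opioid receptors 2 were tested and 0 passed. Oprl1, the nociceptin receptor, was at 33.3 ± 3.06 and 33.2 ± 4.23 FPKM, and the kappa receptor Oprk1 at 3.50 ± 0.664 and 3.89 ± 0.329 FPKM (SD, n = 3 each).

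Of the other cyclase partners 0 of 6 tested passed limma's test, with 2 at an unadjusted p under 0.05 (22.3% of all tested genes). These were Cap1, a cyclase-associated actin regulator, at 85.5 ± 1.76 and 73.7 ± 5.16 FPKM (adjusted p = 0.114), and the calmodulin gene Calm2 at 1166 ± 44.6 and 1292 ± 71.7 FPKM (SD, n = 3 each; adjusted p = 0.204). Cap1 passed rescaled to TPM (limma adjusted p = 0.0410). The soluble cyclase gene Adcy10 was at 0.08 FPKM or less in each library.

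Downstream, 0 of 9 subunits and inhibitors of protein kinase A passed, with 1 at an unadjusted p under 0.05 (22.3% of all tested genes). This was the catalytic subunit gene Prkacb, at 122 ± 6.86 and 107 ± 7.36 FPKM (SD, n = 3 each; limma adjusted p = 0.184). The regulatory subunit gene Prkar1a, the most abundant of the list, was at 280 ± 15.3 and 272 ± 11.3 FPKM, and Prkar2a was at 16.4 ± 1.39 and 15.0 ± 0.405 FPKM.

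Among other effectors, which include the cyclic-nucleotide-gated pacemaker channels, 0 of 7 tested passed. At an unadjusted p under 0.05 there was 1, where 22.3% of all tested genes were under that p. Hcn4 was at 3.06 ± 0.272 and 2.37 ± 0.353 FPKM and Hcn2 at 110 ± 6.00 and 97.7 ± 9.43 FPKM (SD, n = 3 each), with limma adjusted p values of 0.217 and 0.274.

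Of 11 A-kinase anchors, which hold the kinase near its targets, 0 passed, with 4 at an unadjusted p under 0.05 (22.3% of all tested genes). Akap12 was at 18.3 ± 1.35 and 13.8 ± 2.04 FPKM and Akap13 at 2.88 ± 0.504 and 1.98 ± 0.428 FPKM (SD, n = 3 each), with limma adjusted p values of 0.0990 and 0.183. Akap12 passed rescaled to TPM (0.0444) and without morphine 2 (0.0368). Akap11, the most abundant, was at 26.9 ± 2.193 and 23.5 ± 0.410 FPKM.

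Of 10 CREB family and coactivator genes 0 passed, with 3 at an unadjusted p under 0.05 (22.3% of all tested genes). The acetyltransferase genes Ep300 and Crebbp, close relatives that serve CREB as coactivators, differed in opposite directions. Ep300 was at 7.54, 6.98 and 7.62 FPKM after saline against 6.32, 5.01 and 5.43 after morphine (limma adjusted p = 0.0927). Crebbp was at 5.76, 5.51 and 5.76 FPKM after saline against 10.6, 6.76 and 8.69 after morphine (adjusted p = 0.0948). Neither pair of groups overlapped, and neither gene passed, although Crebbp did without morphine 2 (adjusted p = 0.0334) and Ep300 did rescaled to TPM (0.0406). Atf2, the most abundant of the list, was at 31.5 ± 4.05 and 30.3 ± 2.34 FPKM (SD, n = 3 each).

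**Figure D4:**
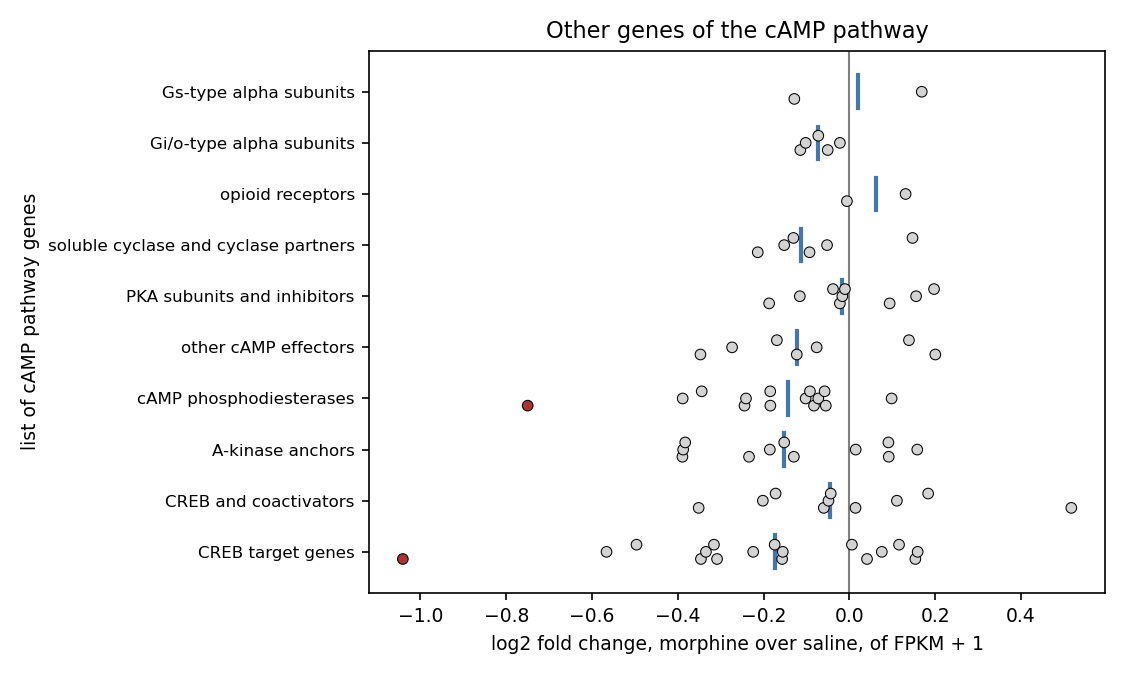
Log2 fold change of FPKM + 1, morphine over saline, of each tested gene in the 10 lists of cyclic AMP pathway genes, with blue bars at the list medians and red points past the adjusted p threshold. The 2 red points are Pde4d at -0.75 and Fos at -1.04, and the highest point is Crebbp at 0.52.

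Markers of other cell types differed between the groups in some lists. The 6 blood cell markers summed to 758 to 1062 FPKM in saline and 420 to 596 in morphine, with 1 called lower (the beta-globin gene Hbb-bt), 5 at an unadjusted p under 0.05 and none of the 6 at 0. The 8 markers of endothelium and pericytes summed to 81.3 to 83.7 FPKM in saline and 64.4 to 79.3 in morphine, with 0 called, and 5 at an unadjusted p under 0.05. Of all tested genes 22.3% were under that p. The 6 markers of meningeal fibroblasts summed to 65.4 to 97.9 FPKM and 17.1 to 79.4 FPKM, with 0 called. The 5 ependymal markers summed to 11.7 to 14.6 FPKM and 15.9 to 17.6 FPKM. Ccdc153 was called higher, but it reached 1 FPKM in the morphine libraries only, so the filter favoured that direction. Foxj1, the most abundant of the 5, overlapped between groups at 9.67 ± 1.43 and 9.85 ± 1.28 FPKM (SD, n = 3 each). The 10 neuronal markers summed to 3322 to 3528 FPKM and 3182 to 3374 FPKM, with 0 called. Of these 10, 6 had a log2 fold change below 0, and 2 were at an unadjusted p under 0.05, both lower. The 2 were Slc6a5, at 55.9 ± 7.32 and 37.3 ± 3.84 FPKM, and Slc32a1, at 91.0 ± 7.13 and 77.6 ± 7.03 FPKM (SD, n = 3 each). Their limma adjusted p values were 0.0574 and 0.185. The part of these cell types in the Adcy9 result was not tested.

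**Figure D5:**
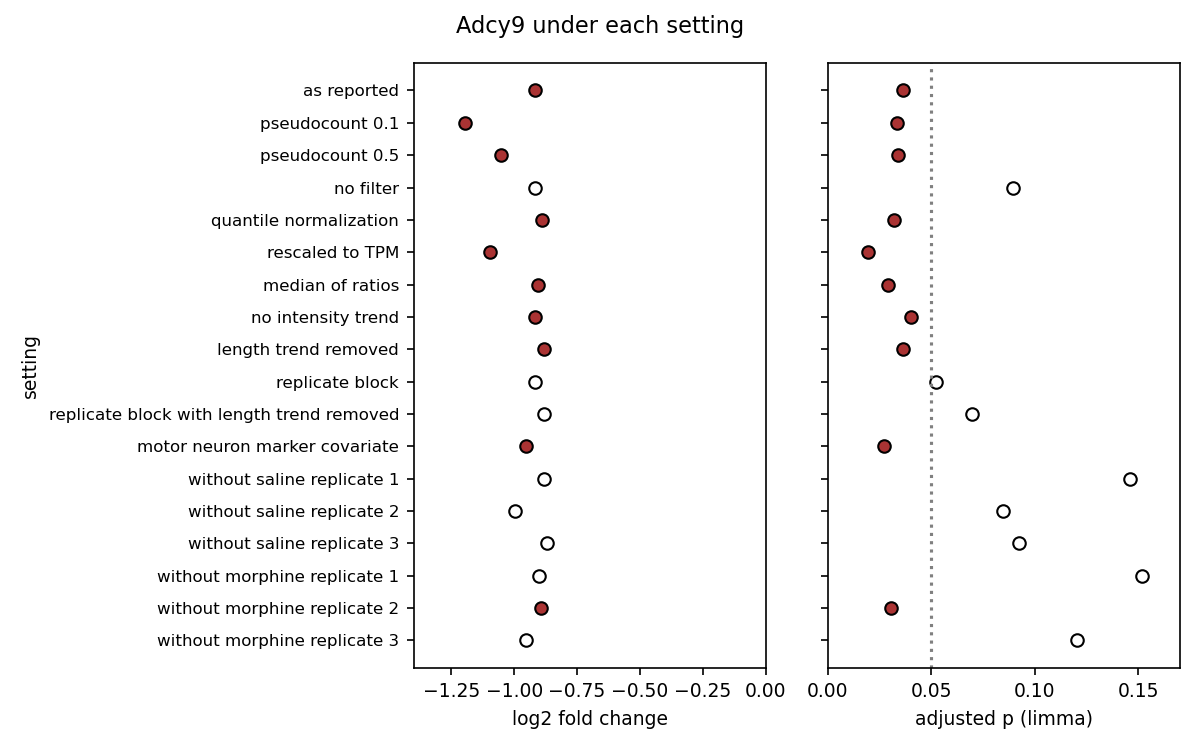
Log2 fold change of Adcy9 (left) and limma's adjusted p (right) under each setting, with red points past the threshold of 0.05 (dotted line). The fold change lies between -1.19 and -0.87 throughout, and the adjusted p runs from 0.0193 to 0.152.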

How the data were processed

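The authors deposited 1 table of FPKM per gene, rounded to 2 decimals, with 1 column for each of the 6 libraries. The submitters' processing notes name RSEM, STAR, Trimmomatic, bcl2fastq 2.19.0 and build mm10. They state neither the annotation release nor a strand setting. GENCODE M21 gave positions and exonic lengths for 99.8% of tested genes. Depth was estimated by finding the depth and mean fragment length at which low values of genes with 1 transcript were whole fragments (75.6% to 78.1% within 0.05 of a fragment or the table's rounding, against 12.7% to 16.9% for even spread).

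A gene was tested when 3 or more of the 6 libraries reached 1 FPKM. Groups were compared as log2(FPKM + 1) by limma 3.58.1 in R 4.3.3 (trend on mean level, two-sided), with Benjamini-Hochberg adjustment over all tested genes and a threshold of 0.05. Fold changes on this scale understate those of low genes. Single values used exact two-sided permutation tests (SciPy 1.17.1). Shares were taken over the summed FPKM of the 9 isoforms. The model was tested on simulated data. Other settings covered the pseudocount, filter, scaling, variance model, transcript length, a replicate block, a motor neuron covariate and leaving out each library.

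Isoforms and lists were chosen with earlier results of these data known. Named pathway genes are, per list, up to 4 that passed, or the 2 with the smallest p, and the most abundant. Adcy10 was named after its values were seen, as were the marker genes. For likeness, the 3 genes with the highest Pearson's r to Adcy9 and to Adcy5 were taken, leaving out predicted genes and clone names. One gene that this rule gave is not reported here.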

Additional observations from a re-analysis of the deposited data

How the results depend on the processing

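The Adcy9 call held in 9 of 17 other settings, with a log2 fold change of -1.19 to -0.87. It was lost with no filter, where 28021 genes shared the adjustment, under the replicate block, and without any single library other than morphine 2. Counts of isoforms past the threshold were 0 with no filter, 2 rescaled to TPM, 3 with the motor neuron covariate, and 0 to 1 without single libraries. Counts of pathway genes were 0 with no filter, 7 rescaled to TPM, 1 with the length trend removed, 5 with the covariate, and 0 to 4 without single libraries. Counts of all genes, 220 as reported (138 higher, 82 lower), were 8 with no filter, 102 after quantile normalization (47 higher, 55 lower), 954 rescaled to TPM (853 of them lower), 540 by median of ratios (387 higher, 153 lower), 36 without the intensity trend (14 higher, 22 lower), 28 with the length trend removed (11 higher, 17 lower), 902 with the covariate, and 1 to 805 without single libraries (805 without morphine 2, with 531 higher and 274 lower). The cause of these shifts was not tested. The deviations of same-numbered libraries from their group means had r of -0.13, 0.16 and 0.29 for numbers 1, 2 and 3, across genes. Differently numbered libraries had r of -0.34 to 0.24. With 3 libraries per group these values cannot decide whether the numbers pair the libraries. The replicate block gave 0 isoforms, 0 pathway genes and 24 genes in all, and with the length trend removed 0, 0 and 7; Adcy9 had adjusted p values of 0.0521 and 0.0697.

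The log2 fold change of Adcy6, -0.0038 as reported, turned to 0.034 after quantile normalization, 0.0080 by median of ratios and 0.049 with the length trend removed, also with the replicate block (0.049), and ran from -0.083 to 0.064 without single libraries. Without single libraries Adcy7 ran from -0.20 to 0.0045 and Adcy8 from -0.13 to 0.00077. The share difference, morphine minus saline, ran from -1.27 to 0.0823 percentage points for Adcy1, from -0.372 to 1.21 for Adcy5 and from -2.25 to 0.499 for the calmodulin-stimulated group. The Adcy9 share difference ran from -3.02 to -2.46. Depth limits Adcy4 most, at 35 to 66 fragments per library.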

Other observations

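Oprd1, the delta opioid receptor gene, was under the filter and had groups that did not overlap, at 0.90, 0.64 and 0.92 FPKM after saline against 0.32, 0.32 and 0.38 after morphine. In limma's fit with no filter its log2 fold change was -0.44 with an adjusted p of 0.114. Oprm1, the mu receptor gene, was at 0.62, 0.50 and 0.67 FPKM after saline against 0.61, 0.28 and 0.18 after morphine, so that morphine 1 lay within the saline range. Pde7b, a phosphodiesterase gene outside the naming rule and chosen after its values were seen, was at 3.79, 3.79 and 4.29 FPKM after saline against 2.58, 2.74 and 3.04 after morphine (log2 fold change -0.39, limma adjusted p = 0.0757), and passed when rescaled to TPM (adjusted p = 0.0406) and with the motor neuron covariate (adjusted p = 0.0465). Egr1, an early response gene chosen in the same way, was at 17.99, 18.12 and 22.32 FPKM after saline against 13.6, 11.7 and 13.1 after morphine (log2 fold change -0.57, limma adjusted p = 0.0509), and passed rescaled to TPM (0.0366), by median of ratios (0.0375) and with the covariate (0.0284).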
